A study of Mus musculus with 10 samples.

Results

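The genes described here are 10 imprinted genes with known parts in fetal growth (*H19*, *Meg3*, *Rian*, *Dlk1*, *Peg3*, *Mest*, *Plagl1*, *Cdkn1c*, *Grb10* and *Ndn*), taken by symbol from a table of 23080 genes. All 10 were in the table and passed the filter on low counts. The table holds bulk RNA-seq of the mouse anterior fontanelle (AF), the membrane-covered gap between the skull bones, from 5 control and 5 mutant embryos at E18.5, shortly before birth. The excised piece held suture connective tissue and bone, without skin and brain. The mutants carried *Wnt1-Cre* and 2 floxed alleles of *Fgfr2*, which encodes a receptor for fibroblast growth factors. The *Wnt1-Cre* driver is active in the neural crest, which forms part of the skull mesenchyme, and cells of other origin in the excised piece keep the receptor. The labels call the controls WT and the study calls them littermates, without saying which control and mutant shared a litter. Libraries are named here by group and by the replicate number of the labels, as control 1 to 5 and mutant 1 to 5.

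An imprinted gene is transcribed mainly from the copy inherited from a single parent. For many such genes the choice goes back to DNA methylation laid down in the germ line. Many imprinted genes act on growth before birth. Paternally expressed ones often promote it and maternally expressed ones often restrain it, and several are high in fetal mesenchyme and fall after birth. They lie in clusters that share a control region. The counts do not tell the 2 parental copies apart, so all levels below are sums over both.

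Total counts ranged from 20774645 to 28515403 per library, and the 10 genes took 0.877% to 1.20% of them. Between 18.6% and 33.5% belonged to the ribosomal RNA gene *CT010467.1*. *Fgfr2*, the targeted gene, was higher and not lower in the libraries labelled mutant. It was at 176 to 235 CPM (counts scaled to library size after TMM normalization) in the 5 libraries labelled control and at 273 to 357 CPM in the 5 labelled mutant, a log2 fold change of 0.67 (SE 0.09, edgeR's quasi-likelihood test with Benjamini-Hochberg adjusted p = 0.0487). The groups did not overlap, the log2 fold change was 0.63 to 0.77 under 22 alternatives, and the adjusted p was under 0.05 in 10 of them, including 2 of the 10 that left out a single library (range 4.00e-10 to 0.427). All 8 osteoblast markers had a log2 fold change below 0 (5 at an unadjusted p under 0.05), and all 4 tendon and ligament markers had one above 0 (4 at an unadjusted p under 0.05), with 0 of either list past an adjusted p of 0.05 by edgeR. Over all genes tested, 3.82% were lower and 3.68% higher in mutants at that unadjusted threshold. The summed osteoblast markers overlapped between the groups (exact permutation p = 0.548). The table holds gene totals and no exon values, so it does not show whether the floxed exons were lost, and every difference below is between libraries labelled mutant and libraries labelled control. Sums of osteoblast markers were at 53800 CPM or above in every library and epidermis markers at 5.34 CPM or below. Of 15 marker lists, the sums of the tendon and ligament list (148 to 179 CPM in controls, 199 to 278 CPM in mutants) and of the chondrocyte list (265 to 338 CPM and 351 to 396 CPM) did not overlap between the groups. Singly, 2 of 4 tendon and ligament markers and 1 of 5 chondrocyte markers did not overlap, against 1.48% of all genes. The log2 fold changes of the chondrocyte markers ran from -0.013 to 1.19 (median 0.19). Of these 5, 1 had an unadjusted p under 0.05 by edgeR. Control 2 and mutant 1 stood apart by skeletal muscle markers, and mutant 2 by neuron markers and by the lowest osteoblast sum, the only one under 64670 CPM. Controls and mutants shared litters in pairs that the sources used here do not link to libraries, so no fit by litter was made. In bulk tissue, fewer cells of a type and less RNA per cell cannot be told apart.

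Promoter sequences are shown for 5 of the genes, *Peg3*, *Mest* and *Grb10* because their lowest levels fell in the same libraries, and *Meg3* and *Dlk1* because they are neighbours with different patterns. They come from RefSeq on GRCm38.p6, where 8 of the 10 genes had an entry, and only the longest run outside annotated exons of a window from 250 bases before to 50 after the start is printed, 5′ to 3′ on the gene's strand. Capitals mark CG dinucleotides, the bases that DNA methylation acts on. The runs lie at chr7:6730432-6730577 (minus strand), chr6:30737800-30738049 (plus strand), chr11:12037402-12037670 (minus strand), chr12:109540746-109541000 and chr12:109452573-109452822 (both plus strand).
Peg3: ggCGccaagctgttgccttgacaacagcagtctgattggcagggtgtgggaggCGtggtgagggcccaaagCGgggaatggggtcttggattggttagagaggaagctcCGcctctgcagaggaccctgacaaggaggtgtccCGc
Mest: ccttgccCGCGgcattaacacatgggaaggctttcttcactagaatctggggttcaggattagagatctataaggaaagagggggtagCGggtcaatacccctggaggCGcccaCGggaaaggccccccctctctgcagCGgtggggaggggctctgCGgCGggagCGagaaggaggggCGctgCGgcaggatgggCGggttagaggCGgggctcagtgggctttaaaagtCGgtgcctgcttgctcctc
Grb10: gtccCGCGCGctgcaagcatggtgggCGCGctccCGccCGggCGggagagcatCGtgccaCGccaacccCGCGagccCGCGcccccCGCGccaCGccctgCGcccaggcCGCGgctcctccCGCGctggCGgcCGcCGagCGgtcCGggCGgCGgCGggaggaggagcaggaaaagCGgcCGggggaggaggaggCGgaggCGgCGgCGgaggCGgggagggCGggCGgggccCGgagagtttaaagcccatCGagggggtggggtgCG
Meg3: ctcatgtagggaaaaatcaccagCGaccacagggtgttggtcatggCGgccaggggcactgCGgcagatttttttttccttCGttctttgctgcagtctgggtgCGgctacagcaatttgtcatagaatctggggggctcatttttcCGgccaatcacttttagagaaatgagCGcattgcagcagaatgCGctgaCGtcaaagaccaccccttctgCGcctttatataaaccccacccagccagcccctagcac
Dlk1: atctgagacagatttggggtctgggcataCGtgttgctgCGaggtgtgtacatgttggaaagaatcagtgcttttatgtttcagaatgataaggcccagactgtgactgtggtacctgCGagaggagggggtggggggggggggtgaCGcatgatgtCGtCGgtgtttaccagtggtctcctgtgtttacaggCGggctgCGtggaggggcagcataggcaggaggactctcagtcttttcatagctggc

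The whole 300-base windows held 13 CG for *Peg3*, 17 for *Mest*, 45 for *Grb10*, 13 for *Meg3* and 9 for *Dlk1*, against a median of 7 over 32851 windows. Some of these genes have further windows in RefSeq, which are not printed. *Grb10* has another with 9 CG, *Mest* others with 8 and 17 and *Meg3* another with 1. As many as 45 were in 1.93% of all windows, as many as 17 in 31.4%, as many as 13 in 37.9% and as many as 9 in 45.8%. The *Peg3* run is short, 146 bases, because *Usp29* starts there on the opposite strand. No methylation was measured in these samples, so the sequences describe the loci only.

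The genes fell over a wide range of levels, compared here as CPM per kilobase of merged exons over the 10 libraries. *H19* was the highest at 2669 ± 201 CPM per kb (SD, n = 10). *Cdkn1c* followed at 241 ± 26.5, *Mest* at 177 ± 18.9 and *Grb10* at 79.1 ± 8.29 CPM per kb. *Plagl1* was at 51.0 ± 7.41, *Peg3* at 41.3 ± 6.06 and *Dlk1* at 31.2 ± 15.7 CPM per kb. The lowest were *Ndn* at 17.9 ± 1.98, *Meg3* at 14.4 ± 2.44 and *Rian* at 5.72 ± 1.17 CPM per kb. Each gene was above the next in that order in all 10 libraries, except that *Peg3* was above *Dlk1* in 9 of 10. *Meg3* and *Rian* have merged exons of 18089 and 18234 bases from many transcript models, which lowers their values per kb.

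*H19*, at chr7:142575529-142578143 on the minus strand, is a maternally expressed long noncoding RNA whose exon contains the hairpin of miR-675. It alone took 0.573% to 0.792% of all counts. The mature miR-675 sequences, which lie inside the RNA counted here, are shown with the seed (bases 2 to 8) in capitals.
mmu-miR-675-5p: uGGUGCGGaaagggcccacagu
mmu-miR-675-3p: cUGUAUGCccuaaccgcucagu

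*H19* was at 6339, 6856, 6339, 6897 and 7298 CPM in controls 1 to 5 and at 6644, 5490, 6318, 6939 and 6547 CPM in mutants 1 to 5. The groups overlapped, and mutant 2 was the lowest library. Its control mean was 6746 ± 410 CPM and its mutant mean 6387 ± 549 CPM (SD over 5 libraries), and its log2 fold change -0.08 (95% interval -0.28 to 0.12, edgeR adjusted p = 0.879), or -0.023 without mutant 2. *H19* was the only member with a mean lower in mutants, and its spread between libraries was at the 42.5th percentile of the SDs of log2 CPM over the 1827 genes at least as high as the lowest of the 10 members.

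*Meg3* and *Rian* are maternally expressed noncoding RNAs of the chromosome 12 cluster, *Rian* being a host of small nucleolar RNAs. *Meg3*, at chr12:109541001-109571726, was at 290, 249, 244, 240 and 245 CPM in controls 1 to 5 and at 260, 348, 205, 312 and 213 CPM in mutants 1 to 5. The mutant libraries lay on both sides of the controls, with mutants 2 and 4 above every control and mutants 3 and 5 below. Its log2 fold change was 0.08 (95% interval -0.22 to 0.38, edgeR adjusted p = 0.931), and -0.029 without mutant 2. Neuron markers (5 of 5 in the table, none at 0) summed to 48.1 to 129 CPM in controls and to 48.5 to 402 CPM in mutants, and mutants 2 and 4, the highest for *Meg3*, were also the highest for these markers at 402 and 166 CPM. With the neuron sum as a covariate, added after the data were seen, the log2 fold change of *Meg3* was -0.057.

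*Rian*, at chr12:109603808-109661716, was at 114, 113, 89.6, 85.8 and 85.5 CPM in controls 1 to 5 and at 147, 129, 90.8, 105 and 84.6 CPM in mutants 1 to 5. Mutants 1 and 2 were above every control and mutant 5 was below every control. *Rian* had a log2 fold change of 0.19 (95% interval -0.15 to 0.52, edgeR adjusted p = 0.810), and of 0.077 without mutant 1 and 0.066 with the osteoblast sum as a covariate.

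*Dlk1*, paternally expressed from the same cluster, encodes a transmembrane protein with EGF repeats that holds back adipocyte differentiation. It varied most of the 10 genes, 3.43-fold from the lowest to the highest library, at the 99.6th percentile of the SDs of log2 CPM over the same 1827 genes. It was at 187, 228, 129, 152 and 139 CPM in controls 1 to 5 and at 411, 127, 128, 146 and 120 CPM in mutants 1 to 5. A single library, mutant 1, held the high mutant value, and control 2 was the highest control. *Dlk1* had a log2 fold change of 0.16 over all libraries (95% interval -0.57 to 0.89, edgeR adjusted p = 0.943), and of -0.35 without mutant 1 (edgeR unadjusted p = 0.0458, adjusted p = 0.640, range over all alternatives 0.640 to 1.00). Mutant 1 and control 2 were also the libraries high in skeletal muscle markers (12 of 12 in the table), at 802 and 820 CPM against 25.0 to 166 CPM in the other 8. Within that list, *Myod1* was at 0 in control 5, mutant 3 and mutant 4, and *Pax7* in control 4. Without both libraries, chosen after the data were seen, the log2 fold change of *Dlk1* was -0.21 (edgeR adjusted p = 0.665). With the muscle sum as a covariate it was 0.04 (SE 0.25, edgeR unadjusted p = 0.864). Over the 10 libraries *Dlk1* had an r of 0.65 with the muscle sum (permutation p = 0.0348, adjusted 0.333 over 150 relations to marker lists, rho = 0.36, p = 0.314), which was -0.50 without control 2 and mutant 1. Mutant 1 was also highest for *Clec3b*, *Pi16* and *Dpt* of the fibroblast list, but not for *Lum* and *Col14a1*. The former were at 45.2, 76.6 and 36.1 CPM there and at most 13.8, 19.6 and 15.7 CPM elsewhere. Its Schwann cell sum was highest too, at 37.2 CPM. The r of that sum with *Dlk1* was 0.66 (permutation p = 0.0368, adjusted 0.333, rho = 0.59, p = 0.0804) and 0.57 without control 5 and mutant 1. Without single libraries it was as low as 0.29. No cause was tested.

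*Cdkn1c* and *Grb10* are maternally expressed restraints on growth. *Cdkn1c* encodes the cyclin-dependent kinase inhibitor p57, and *Grb10* an adaptor that dampens signaling from the insulin and IGF receptors. *Cdkn1c*, at chr7:143458339-143461050, was at 516, 543, 408, 463 and 510 CPM in controls 1 to 5 and at 535, 401, 537, 540 and 469 CPM in mutants 1 to 5. Its lowest values were in control 3 and mutant 2, and the groups overlapped almost fully. Between the groups it differed by 0.025 log2 units (95% interval -0.20 to 0.25, edgeR adjusted p = 0.972), and by -0.024 without control 3.

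*Grb10*, at chr11:11930508-12038683, was at 752, 780, 633, 670 and 673 CPM in controls 1 to 5 and at 841, 596, 762, 714 and 769 CPM in mutants 1 to 5. Both the highest and the lowest library were mutants. The difference was 0.07 on the log2 scale (95% interval -0.14 to 0.28, edgeR adjusted p = 0.902), and 0.027 without mutant 1.

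*Plagl1* and *Peg3* are paternally expressed zinc finger proteins. *Plagl1*, at chr10:13060504-13131694, was at 427, 404, 290, 391 and 439 CPM in controls 1 to 5 and at 487, 337, 374, 457 and 382 CPM in mutants 1 to 5. Control 3 was the lowest and mutant 1 the highest library. Its log2 fold change was 0.06 (95% interval -0.21 to 0.34, edgeR adjusted p = 0.941), and it turned to -0.018 without control 3 and to -0.00057 without mutant 1.

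*Peg3*, at chr7:6703892-6730431, was at 605.5, 600.4, 434, 450 and 488 CPM in controls 1 to 5 and at 612, 462, 616.5, 614.5 and 625 CPM in mutants 1 to 5. The values fell into 2 separate sets, 434 to 488 CPM in 4 libraries (controls 3, 4 and 5 and mutant 2) and 600.4 to 625 CPM in the other 6. The gap of 112 CPM took 0.588 of the whole range, more than any gap with at least 2 libraries on each side in the other 9 genes. Each set held libraries of both groups. *Peg3* had a log2 fold change of 0.18 (95% interval -0.07 to 0.44, edgeR adjusted p = 0.743).

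*Mest*, at chr6:30723547-30748465, is paternally expressed and encodes a protein of the alpha/beta hydrolase fold. It was at 748, 815, 618, 634 and 648 CPM in controls 1 to 5 and at 700, 588, 712, 741 and 780 CPM in mutants 1 to 5. Its 4 lowest libraries were the 4 of the lower *Peg3* set. The log2 fold change was 0.024 (95% interval -0.19 to 0.24, edgeR adjusted p = 0.972), and it was -0.0048, -0.0059 and -0.015 without control 3, control 4 and mutant 5. *Mest* and *Copg2* share 912 exon bases on opposite strands, *Meg3* and Gm26906 1228 and *Cdkn1c* and Gm44732 625, and nothing states that reads were counted by strand, so these totals are uncertain to that extent.

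*Ndn*, at chr7:62346569-62350262, is paternally expressed and encodes necdin, a MAGE family protein best known from neurons. It was at 71.5, 68.8, 56.4, 53.8 and 60.6 CPM in controls 1 to 5 and at 69.7, 76.9, 64.2, 72.0 and 67.5 CPM in mutants 1 to 5. Controls 3, 4 and 5 were below every mutant, while controls 1 and 2 lay among them. The log2 fold change was 0.17 (SE 0.08, 95% interval -0.01 to 0.35), with an unadjusted p of 0.0643, an adjusted p of 0.669 by edgeR and a two-sided exact permutation p of 0.0873 over all groupings of the libraries. It was the lowest p of the 10 genes, and it did not pass the threshold of 0.05. The unadjusted p of *Ndn* did pass by DESeq2's Wald test (0.0499) and by edgeR with the replicate number as a block (0.0357). By edgeR it also passed without control 1 (0.0156), control 2 (0.0294) or mutant 3 (0.0377), and without control 2 and mutant 1 together (0.0431). Its adjusted p was 0.5515 or above under every alternative.

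**Figure D1:**
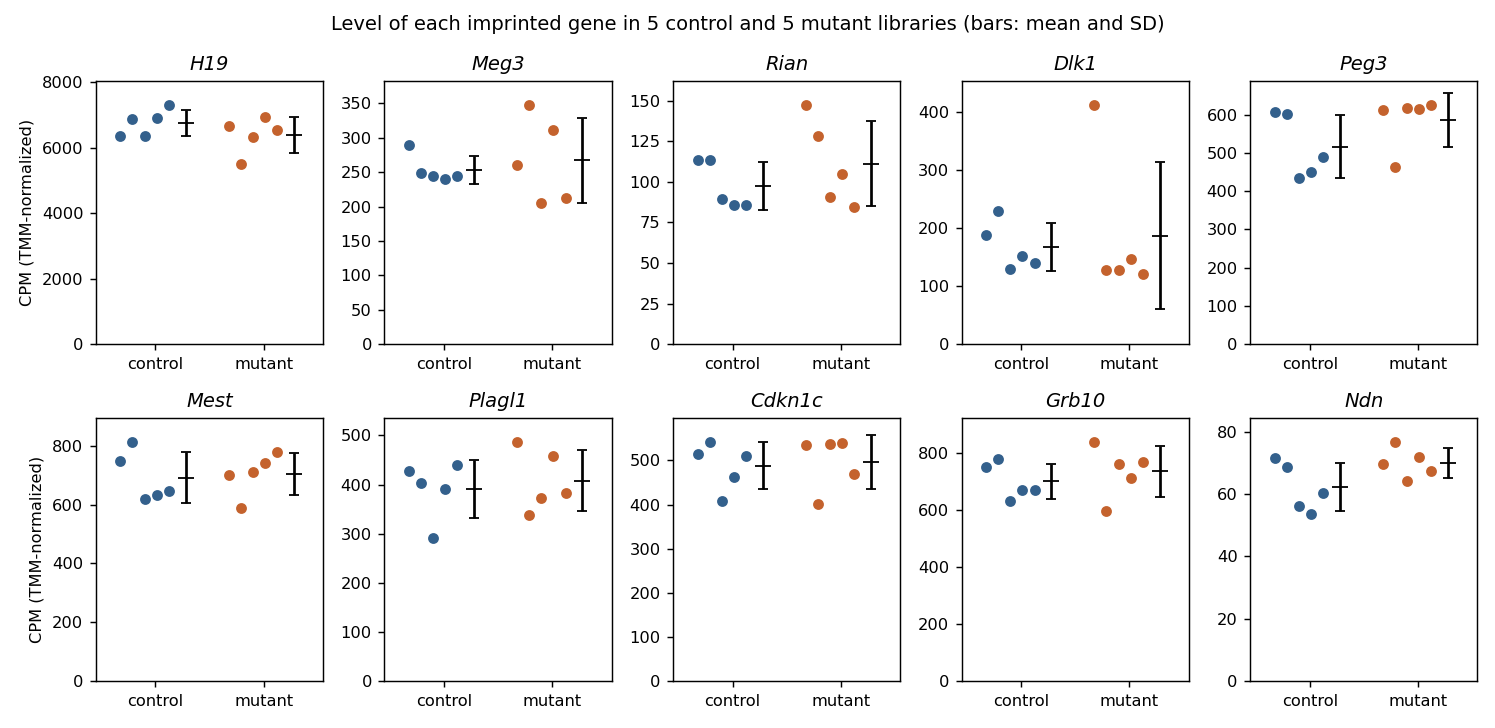
Level of each gene in CPM (vertical axes from 0) in 5 control and 5 mutant libraries, replicates 1 to 5 from left to right, with the mean and SD of each group as a bar. The groups overlap for all 10 genes, and the single high Dlk1 library at 411 CPM is mutant 1.

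Across the 10 genes, none differed between the groups with an adjusted p under 0.05, where 3 of 16267 genes tested (0.0184%) did by the same edgeR fit. None had an unadjusted p under 0.05 either, where 7.49% of all genes did (3.68% higher and 3.82% lower in mutants). None had groups that did not overlap, where 1.48% of all genes had. DESeq2's Wald test and limma voom with quality weights each called 0 of the 10 after adjustment, where they called 98 and 3 of 16267 genes. Each had 1 of the 10 at an unadjusted p under 0.05 (*Ndn* by DESeq2 and *Peg3* by limma voom), where 7.66% and 7.32% of all genes were. The fold changes ran from -0.08 for *H19* to 0.19 for *Rian* on the log2 scale, 9 of 10 above 0, with a median of 0.07 against 0.0007 over all genes tested. Without control 3, 6 of 10 were above 0, and without mutant 1, 7 were. The median was 0.031 without mutant 1 and up to 0.13 without other single libraries. Scaled by library size alone, 7 of 10 were above 0. The widest interval was that of *Dlk1*, which reached 0.89, and those of *Mest* and *Cdkn1c* ran from -0.19 to 0.24 and from -0.20 to 0.25.

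**Figure D2:**
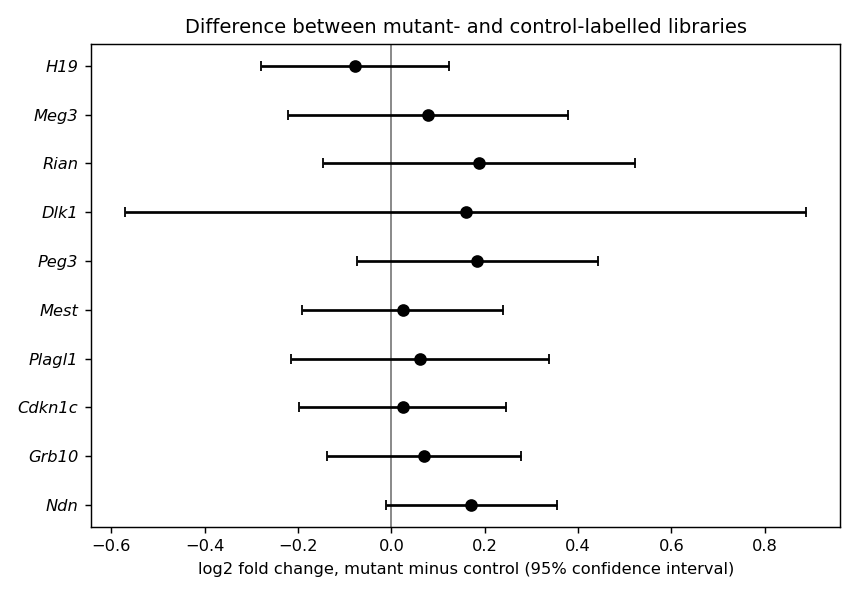
Log2 fold change of each gene, mutant minus control (horizontal axis), with its 95% confidence interval from edgeR as a bar. All 10 intervals include 0, and the widest is that of Dlk1, from -0.57 to 0.89.

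Other imprinted genes were read from a list of 57, of which 54 were in the table and 50 were tested. None was called by edgeR after adjustment, and 0 by DESeq2 and by limma voom. At an unadjusted p under 0.05, edgeR had 2 higher and 1 lower of the 50, against 7.49% of all genes. DESeq2 had 3 and limma voom 2 of the 50, against 7.66% and 7.32% of all genes. Their fold changes were above 0 for 28 and below 0 for 22, with a median of 0.03. *Zim1*, a zinc finger gene beside *Peg3*, had the lowest p. It was at 127, 118, 94.3, 86.3 and 94.5 CPM in controls 1 to 5 and at 139, 106, 145, 127 and 133 CPM in mutants 1 to 5, a log2 fold change of 0.32 (edgeR adjusted p = 0.586, exact permutation p = 0.0476). Its 4 lowest libraries were again controls 3, 4 and 5 and mutant 2. *Ppp1r9a*, at 17.1 to 19.5 CPM in controls and 18.0 to 29.2 CPM in mutants, and *Kcnk9*, at 0.245 to 0.593 and 0.385 to 2.38 CPM, had log2 fold changes of 0.30 and 0.96 (edgeR adjusted p = 0.628 and 0.679), and both were highest in mutant 2. The lowest p among genes lower in mutants belonged to *Calcr* (log2 fold change -0.54, edgeR adjusted p = 0.631), *Slc22a18* (-0.42, 0.675) and *Copg2* (-0.12, 0.724). *Igf2*, the paternally expressed growth factor that shares its cluster with *H19*, was at 4804 to 5387 CPM in controls and at 4598 to 5663 CPM in mutants, a log2 fold change of 0.03 (edgeR adjusted p = 0.966).

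The second question was whether the 10 genes vary together from library to library. Relative to each gene's own mean, control 3 was below the mean for all 10 genes and control 4 for 9 of them. Mutant 1 was above it for all 10, and controls 1 and 2 for 9 each. Averaged over the 10 genes as SDs from each gene's mean, control 3 was the lowest library at -1.08 and mutant 1 the highest at 0.96. Mutant 2 was split. It was the lowest library for *H19*, *Mest*, *Cdkn1c* and *Grb10* and the highest for *Meg3* and *Ndn*.

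**Figure D3:**
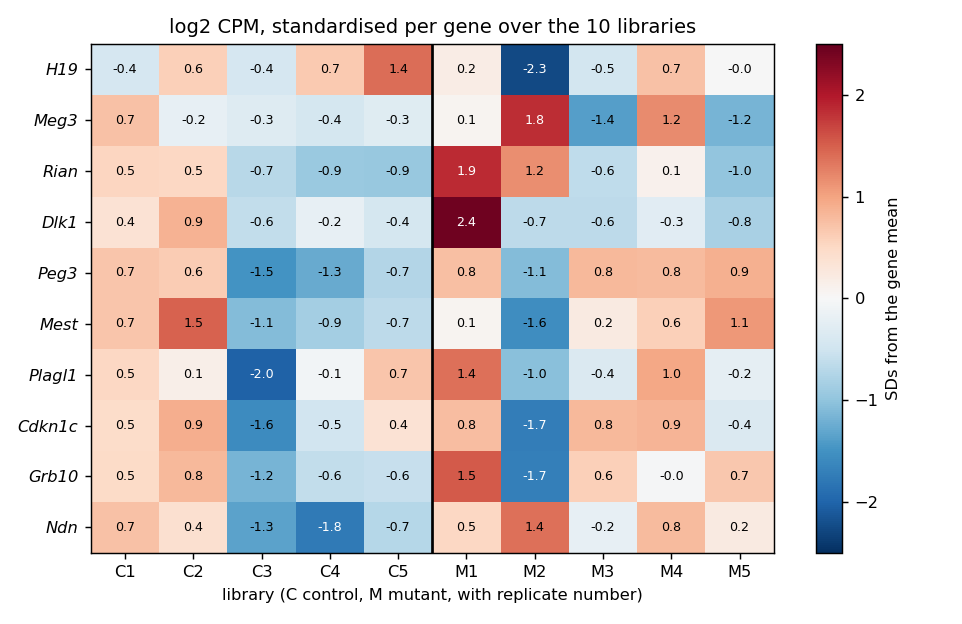
Log2 CPM of the 10 genes (rows) in the 10 libraries (columns, C for control and M for mutant), as SDs from each gene's mean over the libraries. Control 3 is below 0 in every row, and mutant 2 ranges from -2.3 for H19 to 1.8 for Meg3.

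Pearson correlations of log2 CPM were computed for all 45 pairs, of which 38 were above 0 and 7 below. The median r was 0.37, against -0.002 over all pairs of genes tested and 0.10 over pairs of genes at least as high as the lowest member. An r of at least 0.7 was reached by 9 of the 45 pairs, by 2.14% of all pairs of tested genes and by 5.85% of pairs of genes at least as high. The pairs share genes and libraries and are not independent, and no test was made of their number as a whole. By permutation of the libraries, 5 of 45 pairs had an adjusted p under 0.05, and by Spearman's rho none had (10 at an unadjusted p under 0.05, lowest adjusted p 0.154). The count was 0 when any of controls 1 to 5, mutant 3 or mutant 4 was left out, 1 without mutant 1, 4 without mutant 2 and 5 without mutant 5, and it was 14 with scaling by library size alone. The pairs changed too. Without mutant 2 they included *Rian* with *Dlk1* and *Peg3* with *Ndn*, and without mutant 5 *Peg3* with *Cdkn1c* and *Mest* with *Cdkn1c*.

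Of the 5 pairs that passed over all libraries, 2 join *Peg3* to *Mest* and to *Grb10*. Over all 10 libraries r was 0.88 for *Peg3* with *Mest* (permutation p = 0.0018, adjusted 0.0405, rho = 0.70, p = 0.0308) and 0.87 for *Peg3* with *Grb10* (permutation p = 0.0017, adjusted 0.0405, rho = 0.71, p = 0.0263). Without the 2 libraries farthest from the median of *Peg3*, r was 0.86 and 0.87, and without single libraries it was 0.87 to 0.92 and 0.84 to 0.91. After each group was centred on its own mean, r was 0.95 (exact permutation p = 0.00076, adjusted 0.0172) and 0.88 (exact permutation p = 0.00465, adjusted 0.0531), and *Peg3* with *Mest* was 1 of the 2 pairs that passed in that form. As *Peg3* falls into 2 sets of libraries, these values mainly contrast the sets and are not read as a graded relation. The 4 libraries of the lower *Peg3* set were also the 4 lowest for *Mest*, for *Grb10* and for *Zim1*, and 3 of them were among the 4 lowest for *Cdkn1c*, *Ndn* and *Rian*. Within the 6 libraries of the higher set, r was -0.28 for *Peg3* with *Mest* (exact permutation p = 0.585, rho = -0.26, p = 0.658) and -0.11 for *Peg3* with *Grb10* (exact permutation p = 0.874, rho = -0.20, p = 0.714). *Peg3* with *Zim1* had an r of 0.92 over all 10 libraries (permutation p = 0.00121, adjusted 0.0133 over 11 pairs with genes of the members' clusters, rho = 0.92, p = 0.00058), 0.87 without controls 3 and 4 and 0.91 to 0.94 without single libraries, and 0.62 within the higher set (exact permutation p = 0.186, rho = 0.71, p = 0.136). None of the 11 relations of *Peg3* computed within these 6 libraries had an adjusted p under 0.05 (lowest 0.629 for r and 0.321 for rho, with 0 and 1 unadjusted p under 0.05). *Peg3* spans only 600.4 to 625 CPM in these libraries, which were set apart by its own level, so these values do not show whether the relation holds or fails there. *Usp29*, which starts 0.146 kb from *Peg3* on the opposite strand, was highest in mutant 2, at 10.8 CPM against 4.41 to 7.78 CPM elsewhere. Controls 3, 4 and 5 of the lower *Peg3* set were among its 4 lowest libraries, and its r with *Peg3* was 0.026 (permutation p = 0.944, rho = -0.030), or -0.18 to 0.45 without single libraries.

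The other 3 pairs were *Mest* with *Grb10*, *Plagl1* with *Cdkn1c* and *Cdkn1c* with *Grb10*. For *Mest* with *Grb10*, r was 0.81 (permutation p = 0.00517, adjusted 0.0465) and rho 0.78 (permutation p = 0.0107, adjusted 0.154), and r was 0.71 without the 2 libraries farthest from the median of *Mest*. For *Plagl1* with *Cdkn1c*, r was 0.81 (permutation p = 0.00402, adjusted 0.0465) and rho 0.60 (permutation p = 0.0734, adjusted 0.300), and r was 0.73 without the 2 farthest. *Cdkn1c* with *Grb10* had an r of 0.80 (permutation p = 0.00427, adjusted 0.0465) and a rho of 0.73 (permutation p = 0.0198, adjusted 0.154), but r was 0.44 without control 3 and mutant 2, so it rested on those libraries. The sum of fibroblast markers (5 of 5 in the table, none at 0) was lowest in the same libraries. It was 712 CPM in control 3 and 704 CPM in mutant 2, against 808 to 1019 CPM elsewhere. *Lum* (398.5 to 557 CPM) and *Col14a1* (254 to 497 CPM) made up most of it. *Lum* was lowest in these libraries, while *Col14a1* was lower in control 2 (283 CPM) than in mutant 2 (290.5 CPM). *Clec3b* and *Dpt* were lowest in mutant 3 and *Pi16* in mutant 5. The r with that sum was 0.77 for *Cdkn1c*, 0.76 for *Grb10* and 0.75 for *Plagl1* (permutation p = 0.0116, 0.0101 and 0.0113, each adjusted to 0.260 over 150 relations to marker lists, rho = 0.36, 0.55 and 0.50), and 0.095, 0.34 and 0.24 without control 3 and mutant 2. Its part in these pairs was not tested. Each of these pairs joins loci on different chromosomes. After each group was centred on its own mean, r was 0.82 in both of the first pairs and 0.81 in the last, with adjusted p-values of 0.0648, 0.0635 and 0.0648 by exact permutation within groups.

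**Figure D4:**
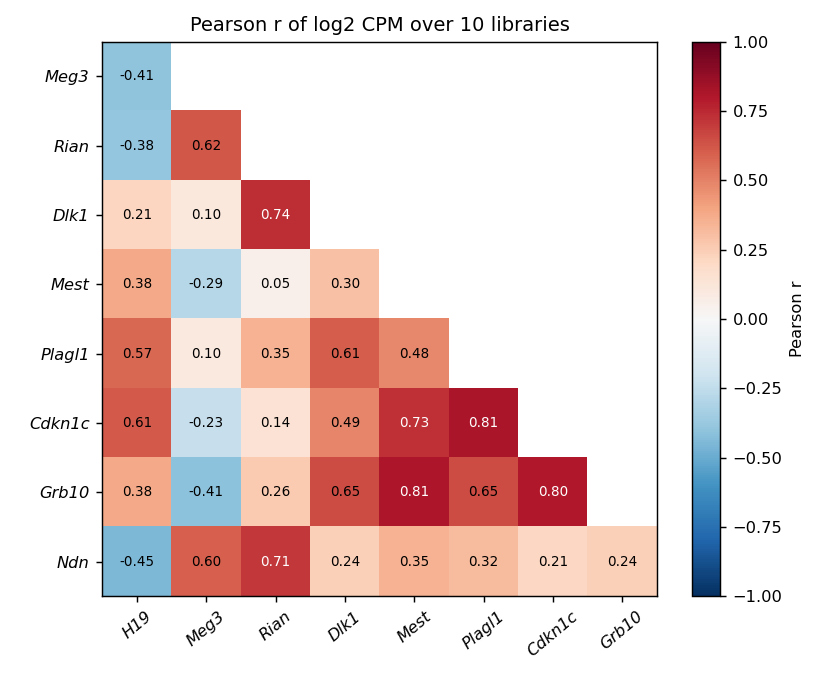
Pearson r of log2 CPM over the 10 libraries for the 36 pairs without Peg3, which falls into 2 sets of libraries. Mest, Plagl1, Cdkn1c and Grb10 reach r from 0.48 to 0.81 with each other, and the negative values all involve H19 or Meg3.

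Within clusters, relations differed from pair to pair. *Dlk1*, *Meg3* and *Rian* lie in that order on chromosome 12, with 77.7 kb between *Dlk1* and *Meg3* and 32.1 kb between *Meg3* and *Rian*. The r of *Meg3* with *Rian* was 0.62 (permutation p = 0.0542, adjusted 0.192, rho = 0.72, p = 0.0232) and 0.60 without the 2 farthest libraries. *Rian* with *Dlk1* had an r of 0.74 (permutation p = 0.0138, adjusted 0.0884, rho = 0.50, p = 0.142). It was 0.45 without mutant 1 (exact permutation p adjusted to 0.469) and 0.93 without mutant 2 (adjusted to 0.0395). *Meg3* with *Dlk1* had an r of 0.10 (permutation p = 0.778, adjusted 0.802, rho = 0.32, p = 0.366). Mutant 1, the highest library for *Dlk1* and *Rian*, was near the mean for *Meg3*, and mutant 2, the highest for *Meg3*, was among the lower ones for *Dlk1*.

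Further genes of the cluster were *Mirg*, a maternally expressed noncoding host of microRNAs, and *Rtl1*, a paternally expressed retrotransposon-derived gene. *Mirg* was low, at 2.70 to 5.49 CPM, and followed *Meg3* with r = 0.81 (permutation p = 0.00491, adjusted 0.0198 over 11 such pairs, rho = 0.90, p = 0.00072). It followed *Rian* with r = 0.75 (permutation p = 0.0128, adjusted 0.0281, rho = 0.70, p = 0.0307). *Rtl1* was at 14.2 CPM in mutant 1, 7.34 CPM in control 2 and 2.17 to 4.13 CPM elsewhere. Its r with *Dlk1* was 0.87 (permutation p = 0.00779, adjusted 0.0214, rho = 0.49, p = 0.157) but -0.11 without control 2 and mutant 1, so it rested on the libraries that were high in muscle markers.

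In the chromosome 7 clusters, *H19* and *Cdkn1c*, 880 kb apart, had an r of 0.61 (permutation p = 0.0599, adjusted 0.192, rho = 0.33, p = 0.347), which was 0.27 without mutant 2. *H19* with *Igf2* had an r of 0.64 (permutation p = 0.0573, adjusted 0.105, rho = 0.18, p = 0.633) and 0.12 without control 5 and mutant 2. *Ndn* with *Magel2*, another MAGE gene of its cluster at 1.14 to 2.78 CPM, had an r of 0.79 (permutation p = 0.00541, adjusted 0.0198, rho = 0.75, p = 0.0180) and 0.62 without the 2 farthest. *Cdkn1c* with *Kcnq1ot1*, the noncoding RNA of its cluster, had an r of -0.39 (permutation p = 0.268, adjusted 0.349, rho = -0.19, p = 0.606), which turned to 0.39 without control 3 and mutant 2 and ran from -0.51 to 0.092 without single libraries. Across chromosomes, *H19* with *Plagl1*, which lies on chromosome 10, had an r of 0.57 (permutation p = 0.0885, adjusted 0.233, rho = 0.65, p = 0.0491) and 0.48 without the 2 farthest.

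*Meg3* and *Ndn*, on different chromosomes, ranked the libraries identically within each group. From lowest to highest the order was 4, 3, 5, 2, 1 in controls and 3, 5, 1, 4, 2 in mutants for both genes, which no other pair of the 10 genes showed. In controls this order rests on small differences, as *Meg3* was at 239.6 to 249.0 CPM in controls 2 to 5. Controls 3 and 5 were at 243.9 and 244.9 CPM. The order was not checked under other scalings. The group-centred r was 0.65 with an exact permutation p of 6.94e-05, the smallest that permutation within groups can give (adjusted 0.00313 over the 45 pairs). That p follows from the identical orders and is not separate support for them. Over all libraries without centring, r was 0.60 (permutation p = 0.0659, adjusted 0.192) and rho 0.82 (permutation p = 0.00567, adjusted 0.154). It was 0.43 without mutant 2 and 0.26 without mutants 2 and 4, the libraries highest in neuron markers. Over 150 relations of a member to a marker list, *Meg3* with the neuron sum had r = 0.73 (permutation p = 0.0167, adjusted 0.278, rho = 0.60, p = 0.0726) and *Ndn* with the neuron sum r = 0.57 (permutation p = 0.0866, adjusted 0.486, rho = 0.49, p = 0.154). Without control 4 and mutant 2, r was 0.51 for *Meg3* and -0.027 for *Ndn*, and without single libraries its lowest value was 0.48 and 0.35. None of the 150 passed an adjusted p of 0.05. The largest was *Ndn* with the macrophage sum, at r = -0.89 and rho = -0.92 (permutation p of r = 0.00059, adjusted 0.0885), and then *Ndn* with the chondrocyte sum at r = 0.86 (adjusted 0.110, rho = 0.78) and *H19* with the proliferation sum at r = 0.83 (adjusted 0.110, rho = 0.81). Macrophage markers summed to 297 to 407 CPM in controls and 266 to 325 CPM in mutants. Chondrocyte sums did not overlap between the groups, and no fit of *Ndn* with that sum was made.

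**Figure D5:**
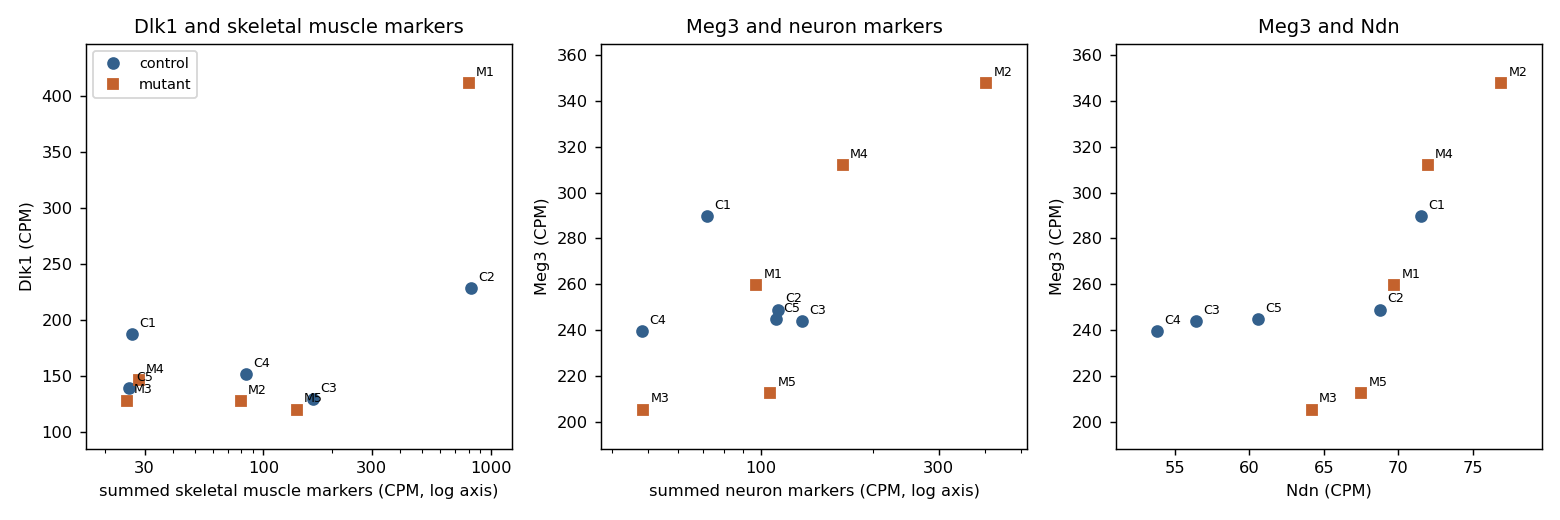
Left, Dlk1 (CPM) against summed skeletal muscle markers (CPM, log axis). Middle, Meg3 (CPM) against summed neuron markers (CPM, log axis). Right, Meg3 against Ndn (CPM). Points are libraries, C for control and M for mutant. Control 2 and mutant 1 stand at the right among muscle markers at 820 and 802 CPM, mutant 2 at the right among neuron markers at 402 CPM, and Meg3 rises with Ndn within each group.

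The lowest correlations were *H19* with *Ndn* (r = -0.45, permutation p = 0.200, adjusted 0.428, rho = -0.30, p = 0.410), *Meg3* with *Grb10* (r = -0.41, permutation p = 0.237, adjusted 0.484, rho = -0.19, p = 0.605) and *H19* with *Meg3* (r = -0.41, permutation p = 0.247, adjusted 0.484, rho = -0.02, p = 0.972). All 3 weakened or turned without mutant 2, to -0.12, -0.03 and 0.24.

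Among other genes with a mean of at least 1 CPM, those most like the averaged level of the 10 genes over the 10 libraries were *Cdk14* (r = 0.92), *Pcdhb17* (0.92), *Penk* (0.91), *Stx11* (0.89) and *Cep192* (0.89). Those most opposed were *Trim65* (r = -0.93), *Cox6c* (-0.92), *Mrpl20* (-0.91), *Elof1* (-0.90) and *Ppp1r10* (-0.89). They were picked as extremes from all tested genes and are given as a description.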

How the data were processed

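RNA from 10 E18.5 AF pieces was made into stranded libraries and sequenced as single 50-base reads. The authors deposited a table of estimated counts per gene, not scaled between libraries, of which 66.4% of values were exactly whole, with no tolerance, and genes with a sum under 10 had been left out. Per the labels, Partek and mm10 were used; the aligner, counting tool and strand setting are not given in the sources used here. Of 22533 symbols in GENCODE M21 (GRCm38), 22296 had the same start and end.

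Estimated counts were rounded, filtered and TMM-normalized (16267 genes), and the groups tested by the quasi-likelihood method of edgeR (R 4.3.3, edgeR 4.0.16, limma 3.58.1, DESeq2 1.42.0), with no covariate and Benjamini-Hochberg adjustment over all genes at a threshold of 0.05. The unpaired fit was used. On simulated counts it recovered 46.8% of genes changed by 0.5 log2 units and 82.6% of genes changed by 1. There 4.88% of its calls were false, and smaller changes were not simulated. The design assumed whole counts. Alternatives were other normalizations, filters, tools and covariates, a replicate block and leaving out libraries. Correlations used log2 CPM (prior count 0.5) and 100000 permutations. Genes named are the 10 members, *Fgfr2*, the 3 other imprinted genes with the lowest p in each direction, cluster neighbours and the extremes of likeness. Members and lists were chosen with earlier results of these data known.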

Additional observations from a re-analysis of the deposited data

Results flagged for a closer look

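In 6 cases a library stood apart from the other 4 of its group, with a gap to the nearest that took more of the group's range than Dixon's critical value at 95% allows. Chance gives about 1 such value in 20 groups, and 48 groups of 5 libraries were examined. *Dlk1* was at 411 CPM in mutant 1 and *Rtl1* at 14.2 CPM in the same library. *Peg3* was at 462 CPM and *Kcnk9* at 2.38 CPM in mutant 2. *Meg3* was at 290 CPM in control 1. *Igf2* was at 4804 CPM in control 3, the lowest control.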

How the results depend on the processing

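Members and other imprinted genes differing with an adjusted p under 0.05 numbered 0 under every alternative and without any single library. With unadjusted p under 0.05 there were 0 and 3, and 1219 of all genes. Without single libraries these were 0 or 1, 2 to 6, and 855 to 1370 (5.19% to 8.34% of all genes). Over all genes, the 3 calls became 98 by DESeq2's Wald test, 6 with neuron markers as a covariate (added after seeing the data), and 1 with library size alone, skeletal muscle markers as a covariate or the replicate block, and 1 to 6 without single libraries. The replicate numbers did not pair the libraries (correlations of same-numbered libraries -0.21 to 0.14), and under the replicate block 0 members were called (2 at unadjusted p under 0.05, where 6.61% of all genes were) and the log2 fold change of *Dlk1* was -0.00081.

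Pairs of members with adjusted p under 0.05 numbered 5, against 14 with library size alone, 0 by Spearman's rho, 2 after group centring, 11 at unadjusted p, 1 without control 2 and mutant 1 together, and 0 to 5 without single libraries, where fewer libraries enter. The cause of the other shifts was not tested.

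Log2 fold changes that turned negative were *Meg3* with limma voom (-0.046), osteoblast (-0.015) or neuron markers as a covariate (-0.057), *Dlk1* without control 2 and mutant 1 (-0.21), and with library size alone *Mest* (-0.019) and *Cdkn1c* (-0.020). Without single libraries, *Meg3* ranged from -0.029 to 0.17, *Dlk1* from -0.35 to 0.30, *Mest* from -0.015 to 0.097 (0.10 without control 2 and mutant 1), *Plagl1* from -0.018 to 0.13, and *Cdkn1c* from -0.024 to 0.098. With library size alone, r was 0.41 for *H19*-*Meg3*, 0.20 for *Meg3*-*Grb10* and 0.29 for *H19*-*Ndn*. Without single libraries, *H19*-*Meg3* ranged from -0.58 to 0.24 and *Meg3*-*Dlk1* from -0.015 to 0.34 (0.35 without control 2 and mutant 1). *H19* (-0.10 to -0.023 without single libraries), *Rian* (0.077 to 0.27, and 0.066 with osteoblast markers as a covariate), *Peg3* (0.14 to 0.26), *Grb10* (0.027 to 0.14) and *Ndn* (0.12 to 0.23) kept their direction under every alternative. The lowest count of a member in a library was 1316, for *Ndn*.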
